A study of Mus musculus with 32 samples.

Results

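The nuclear genes for subunits of the 5 oxidative phosphorylation complexes were examined in the lungs of Bmal1 knockout (KO) and wild-type (WT) mice. Members were the rows of the gene table whose symbol begins with Ndufa, b, c, s or v and a digit, is Sdha to Sdhd or Cyc1, or begins with Uqcr, Cox4 to Cox8 or Atp5. The pattern took 96 of 41687 rows, and dropping 6 named pseudogenes ("-ps") left 90 members. Of these, 38 belong to complex I, 4 to complex II, 9 to complex III, 21 to complex IV and 18 to complex V. GENCODE annotates 86 as protein-coding and 4, Ndufb4c, Cox6c2, Ndufa11b and Ndufs6b, as processed pseudogenes. Atp5o holds 2 rows, of which the second is a readthrough transcript with Donson. Ndufab1, the acyl carrier subunit of complex I, lies outside the pattern.

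The respiratory chain passes electrons from NADH through complex I, or from succinate through complex II, to complex III and then to oxygen at complex IV. The proton gradient built on the way drives complex V, the ATP synthase. Most subunits are encoded in the nucleus and a few in mitochondrial DNA, and NRF-1, ETS-family factors and YY1 are known regulators of the nuclear set. BMAL1 is the core clock factor that binds E-box sequences together with CLOCK. Complex IV has subunit isoforms known for muscle, testis or oxygen-sensitive expression, and lung pericytes are a known site of Cox4i2 and Ndufa4l2.

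The 6 groups of libraries came from 6 WT and 6 KO mice on a C57b/6 background, bred in-house, labelled female and 8 to 18 weeks old. The labels give neither the knockout allele nor the time of day of collection. Each mouse gave 1 library after pull-down of ribosomal RNA (RiboZero) and 1 after selection of polyadenylated RNA (PolyA), both from 200 ng of RNA. Mice 3 to 6 of each genotype also gave a library with no selection (NoSelect) from 15 ng, made in 6 preparations. Libraries are named by genotype and mouse number, so that WT2 is the same mouse in every preparation. Total estimated counts were 11638590 to 25801192 in RiboZero, 29924271 to 41548759 in PolyA and 74979759 to 115059730 in NoSelect. Members held 0.295% to 0.369% of a RiboZero library's counts, 0.625% to 0.692% in PolyA and 0.0672% to 0.0864% in NoSelect.

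The tissue label of 1 library, NoSelect KO6, reads liver where the others read lung. Summed over 6 lung epithelial markers, the level was 18228 to 22988 CPM (counts scaled to a common library size) in the 4 NoSelect KO libraries, KO6 included, and over 9 liver markers it was 3.3 to 6.0 CPM. Bmal1 itself (Arntl in the table) had a RiboZero mean of 30.9 ± 2.87 CPM over 6 WT libraries and of 17.4 ± 1.32 over 6 KO libraries (SD), and the groups did not overlap. The NoSelect means were 28.7 ± 0.857 and 17.8 ± 1.01 (n = 4 each). In PolyA the groups overlapped, with WT at 19.99 to 23.8 and KO at 16.8 to 20.33 CPM. Its log2 KO difference was -0.83, -0.27 and -0.69 in RiboZero, PolyA and NoSelect, each called lower (edgeR adjusted p = 2.46e-05, 0.0262 and 0.00045). CPM are scaled by TMM, edgeR's factor for library composition, within each preparation.

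Of the 90 members, 83 passed the count filter in all 3 preparations: 36 of complex I, 4 of II, 9 of III, 18 of IV and 16 of V. The other 7 were low throughout or nearly so. Cox8c, an isoform known from testis, had 0 counts in all 32 libraries, and Cox7b2 never exceeded 2 counts. Ndufs6b and Ndufa11b stayed at or under 6 counts. Atp5g2, 1 of 3 genes for the c ring of the ATP synthase, had 0 counts in every RiboZero and NoSelect library and in 9 of 12 PolyA libraries. The other 3 PolyA libraries, KO2, KO4 and KO5, held 137, 162 and 16 counts of it, and 40.2% of its 31-base words occur in other genes. The level of Atp5g2 is therefore uncertain, and its 0 counts do not show that the gene is silent in lung. Ndufb4 and its intronless copy Ndufb4c are uncertain, since every 31-base word of Ndufb4c lies in Ndufb4 and the counts can be split between them. Ndufb4c averaged 9.17 CPM and Ndufb4 6.61 in RiboZero. Among tested members, words shared with other genes made up 32.4% of Uqcrb, 26.5% of Ndufs5, 25.4% of Atp5h, 24.5% of Cox7c and 22.8% of Ndufs3, so reads of these may be split with copies.

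Levels per length ordered the complexes the same way in every preparation. Levels were divided by the length of the principal transcript (CPM per kb), and medians over members were taken without the tissue-restricted isoforms. In RiboZero the median was 63.1 CPM per kb in complex IV (12 genes), 42.2 in V (16), 31.1 in III (9), 25.1 in II (4) and 20.4 in I (35). The PolyA medians were 103, 65.1, 42.0, 39.6 and 36.5, and the NoSelect medians 48.5, 34.4, 27.0, 22.4 and 18.3. The ranges of single genes overlapped between all complexes, so the order describes medians and not every subunit. The order of members was close between preparations, with a rank correlation over 82 members of 0.961 for RiboZero and PolyA, 0.985 for RiboZero and NoSelect and 0.959 for PolyA and NoSelect. These correlations run across genes of the same mice.

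**Figure D1:**
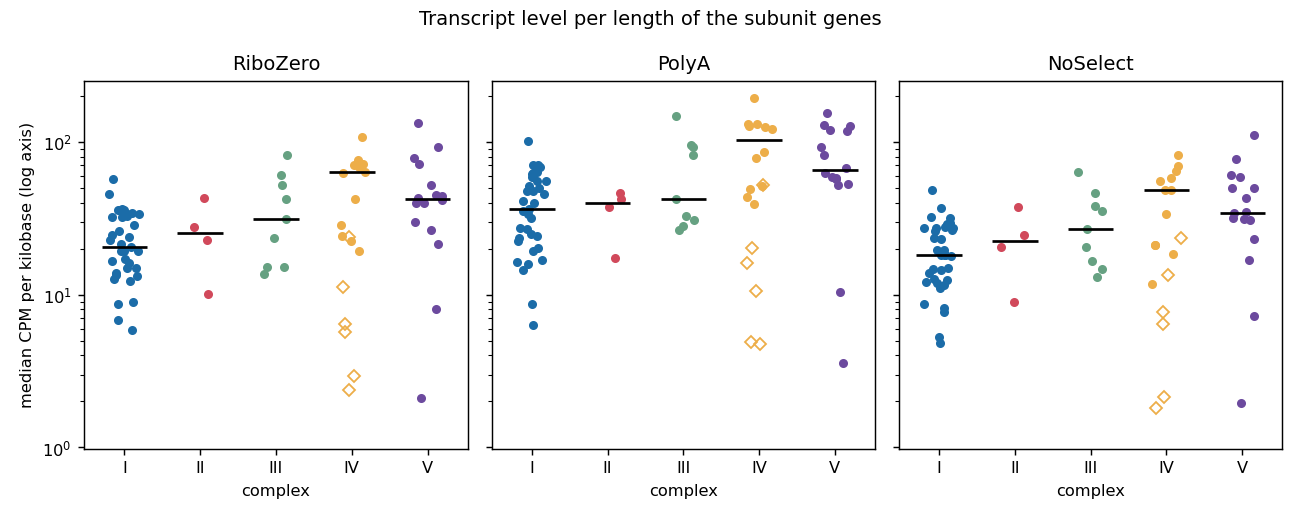
Median level of each member in CPM per kb of principal transcript (log axis), by complex, in the 3 preparations. Filled points are members, open diamonds are tissue-restricted isoforms and lines are complex medians, which run in RiboZero from 20.4 in complex I to 63.1 in complex IV.

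The catalytic subunits of the ATP synthase stood among the highest members. Atp5b, the catalytic beta subunit, had the highest level in complex V at 133, 155 and 111 CPM per kb in RiboZero, PolyA and NoSelect. Its partner Atp5a1, the alpha subunit, was at 92.8, 120 and 77.6. Atp5s, an accessory protein of the complex, was lowest at 2.1, 3.6 and 1.9. Atp5g1, which encodes the same c subunit as Atp5g3 and Atp5g2, was at 8.0, 10.5 and 7.2.

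Complex IV was led by Cox4i1, the common form of subunit 4, at 107, 194 and 82.3 CPM per kb. Cox6a1, the common form of subunit 6a, followed at 75.8, 131 and 69.1. In complex III the hinge protein Uqcrh was highest at 81.6, 147 and 63.7. The electron-carrying subunits of complex III were lower. The Rieske protein Uqcrfs1 was at 15.1, 26.3 and 13.1, and cytochrome c1, Cyc1, at 15.2 in RiboZero and 16.7 in NoSelect. This ranking of single genes depends on the length chosen. The median length over coding transcripts of Uqcrc1 is 533 bases, against 1653 for its principal transcript. By that length Uqcrc1 was highest in complex III in RiboZero and NoSelect, at 96.4 and 83.8. Cox6b1 then also stood above Cox6a1 in complex IV.

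In complex II the flavoprotein Sdha was at 42.8, 46.1 and 37.6 CPM per kb and the iron-sulphur protein Sdhb at 27.6, 37.2 and 24.4. The membrane anchors Sdhd and Sdhc were at 22.7, 42.0 and 20.5 and at 10.1, 17.3 and 9.0. The 4 complex II genes thus spanned 10.1 to 42.8 in RiboZero, and their proteins are known to occur in equal numbers in the complex. By the median length over coding transcripts the range in RiboZero was 22.7 to 68.5. That length is 815 bases for Sdhc, against 3171 for its principal transcript. In complex I, by the principal transcript, Ndufa7 was highest at 57.2, 102 and 48.7 and Ndufb2 lowest in RiboZero at 5.9. Of the redox-active core of complex I, Ndufv1, the NADH-binding flavoprotein, was at 23.7 in RiboZero and Ndufv2, an iron-sulphur protein, at 13.2. The top member of complex I depends on the length chosen. Ndufs1 has a median length over coding transcripts of 651 bases, against 2625.5 for its principal transcripts. By the median length Ndufs1 was highest in RiboZero and NoSelect, at 59.8 and 50.1.

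The promoters of the members were described from RefSeq (GRCm38.p6) over 250 bases before to 50 after each start. Promoters were found for 68 members by symbol or RefSeq synonym, the 2 Atp5o rows sharing 1. Motifs were searched as exact letters on both strands, and the counts are descriptions without a test. The NRF-1 motif, whose form in Sdhd is printed below, was in 17 member promoters (25.0%) and in 7.17% of the promoters of 17491 coding genes. The ETS motif CCGGAAG was in 16 (23.5%) against 12.9%. The extended YY1 motif was in 4, Ndufa9, Ndufs4, Ndufs6 and Ndufs7, or 5.88% against 1.06%. The E-box CACGTG, the motif bound by BMAL1 with CLOCK, was in 6, or 8.82% against 8.91%.

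The NRF-1 motif was in 6 of 15 promoters of complex V, 7 of 31 of complex I, 2 of 3 of complex II, 1 of 5 of complex III and 1 of 14 of complex IV. The promoter of Sdhd is shown because Sdhd was called for KO in both RiboZero and PolyA and carries 1 NRF-1 and 1 ETS match, in capitals. It lies at chr9:50603800-50604099 on the minus strand.
Sdhd: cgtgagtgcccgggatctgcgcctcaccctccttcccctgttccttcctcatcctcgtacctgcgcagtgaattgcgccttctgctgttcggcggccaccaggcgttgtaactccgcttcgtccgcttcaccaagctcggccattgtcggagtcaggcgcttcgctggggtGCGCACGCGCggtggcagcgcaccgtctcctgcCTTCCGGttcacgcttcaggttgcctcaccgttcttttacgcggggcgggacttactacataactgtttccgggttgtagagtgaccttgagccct

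The 6 E-boxes are shown because the knockout targets the gene of a factor known to bind this motif. Each window holds up to 12 bases on either side of the motif, in capitals, on the strand of the gene.
Atp5g1: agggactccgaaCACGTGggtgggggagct
Atp5g3: acccctgcctggCACGTGcaaggagcgagg
Atp5l: ctcaggattcttCACGTGttatcgcgcctc
Atp5f1: aCACGTGgtgtacctctgc
Ndufa7: gcggagaggagtCACGTGagcaggggatgc
Ndufv1: agcagagggcgaCACGTGagcctggtttac

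Relative to the annotated start, the motif began at -44 in Atp5g1, -72 in Ndufa7, -147 in Atp5l, -169 in Ndufv1, -238 in Atp5g3 and -249 in Atp5f1 (RefSeq Atp5pb). Of these genes 4 encode parts of the membrane sector or peripheral stalk of the ATP synthase and 2 encode complex I subunits. Their log2 KO differences ran from -0.11 to 0.12 over the 3 preparations, and none of the 6 was called in any. Neither Ndufv3 nor Cox7c, described below, had a match to any of the NRF-1 letters, and no promoter of Uqcrc2 was matched.

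The KO comparison asked which subunit genes differ between Bmal1 KO and WT lungs, and it was made within each preparation. Differences were tested with edgeR's quasi-likelihood test, and a gene was called at a Benjamini-Hochberg adjusted p under 0.05 over all rows tested. In RiboZero 3 of 83 members rose in KO and 0 fell, where 3.46% of all rows were called, 1.84% higher and 1.63% lower. In PolyA 2 rose and 0 fell, where 4.03% of all rows were called, 1.62% higher and 2.41% lower. In NoSelect 0 of 83 were called by edgeR and 1 by DESeq2, where edgeR called 2.17% of all rows, 1.19% higher and 0.981% lower. The members' shares called by edgeR were near or under the background in each preparation, and no background for DESeq2 is given here. At an unadjusted p under 0.05 stood 11 members in RiboZero (all rows, 16.4%), 9 in PolyA (18.0%) and 8 in NoSelect (15.7%), also no more than the background. The labels do not say that the mice came from separate litters or cages, so p-values measure the spread between these mice.

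Ndufv3, on chr17:31520115-31531331 of GRCm38, encodes a supernumerary subunit of the NADH-binding arm of complex I. In RiboZero its lowest, median and highest WT levels were 19.7, 21.2 and 21.4 CPM, and those in KO were 21.1, 24.2 and 25.7. Only the lowest KO library, KO3, fell inside the WT range. In PolyA the WT levels were 26.4, 29.1 and 30.9 CPM and the KO levels 30.0, 33.0 and 34.3. Again 1 KO library, KO6, lay within the WT range. In NoSelect WT3 to WT6 stood at 17.4, 16.3, 16.4 and 17.6 CPM and KO3 to KO6 at 19.2, 19.6, 21.6 and 19.6, with no overlap.

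The fitted log2 KO difference of Ndufv3 was 0.21 in RiboZero (SE 0.0485) and 0.18 in PolyA (SE 0.0468). The edgeR adjusted p-values were 0.0357 and 0.0462. In NoSelect the difference was 0.24 (SE 0.0523), at an edgeR adjusted p of 0.0592. The NoSelect difference thus missed the threshold although its groups did not overlap. Over the alternative settings, among them leaving out each mouse, it was called in 8 of 21 alternatives in RiboZero, 9 of 21 in PolyA and 2 of 16 in NoSelect.

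Sdhd, on chr9:50596357-50603812, encodes a membrane anchor of succinate dehydrogenase at the quinone-binding site. In PolyA its WT levels were 41.3, 46.5 and 51.5 CPM (lowest, median, highest) and its KO levels 51.9, 53.6 and 55.0. Every KO library lay above every WT library there, with WT2 the nearest. In RiboZero the WT levels were 26.3, 27.3 and 27.91 CPM and the KO levels 27.87, 32.2 and 34.6. The overlap in RiboZero was limited to the lowest KO library, KO5, and the highest WT library, WT1. In NoSelect WT3 to WT6 stood at 23.8, 26.0, 24.1 and 23.6 CPM and KO3 to KO6 at 25.1, 28.4, 25.3 and 28.2, with WT4 above 2 KO libraries.

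The log2 KO difference of Sdhd was 0.22 in PolyA (SE 0.0485) and 0.21 in RiboZero (SE 0.0522), at edgeR adjusted p-values of 0.0271 and 0.0470. In NoSelect it was 0.13 (SE 0.0569) and not called (edgeR adjusted p = 0.305). In PolyA the call stood under 18 of 21 alternatives and was lost when libraries were thinned to the smallest total, with the replicate number as a block, and without KO4. In RiboZero it stood under 7 of 21. The other complex II genes, Sdha, Sdhb and Sdhc, were not called in any preparation.

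Uqcrc2, on chr7:120635176-120659524, encodes core protein 2 of complex III. In RiboZero its WT levels were 41.0, 43.1 and 45.7 CPM and its KO levels 43.9, 49.5 and 50.8. The groups overlapped there through KO5 below WT5. The log2 KO difference was 0.17 (SE 0.0413, edgeR adjusted p = 0.0438). Uqcrc2 was called in 8 of 21 alternatives in RiboZero, 0 of 21 in PolyA and 0 of 16 in NoSelect. In PolyA the ranges were 51.3 to 57.7 CPM in WT and 50.6 to 57.3 in KO, and the log2 difference was 0.02 (adjusted p = 0.878). In NoSelect WT3 to WT6 stood at 37.5, 39.2, 38.8 and 40.5 CPM and KO3 to KO6 at 38.9, 38.2, 40.2 and 39.6, a log2 difference of 0.01 (adjusted p = 0.937). The groups lay on top of each other in both of these preparations.

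**Figure D2:**
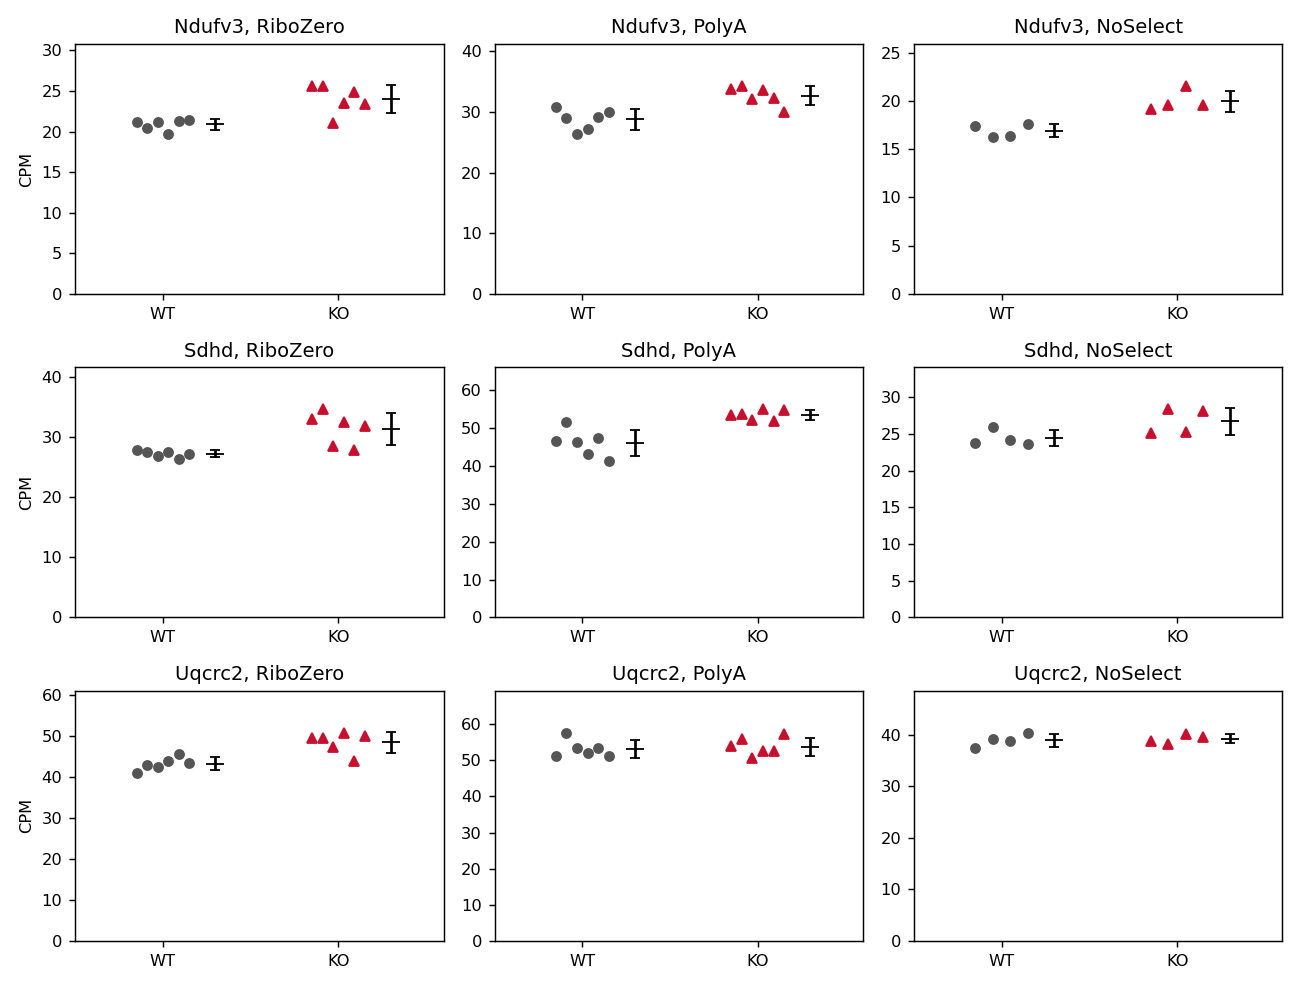
CPM of Ndufv3, Sdhd and Uqcrc2 in each library, by preparation, with WT as circles, KO as triangles and the mean ± SD beside them. Sdhd in PolyA shows all 6 KO libraries above all 6 WT libraries, and Uqcrc2 in RiboZero shows 5 of 6 KO libraries above all WT libraries, with KO5 below WT5.

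Whether the KO effect itself differed between preparations was tested in edgeR with a genotype by preparation term, without a block for the mouse. For PolyA against RiboZero, PolyA against NoSelect and RiboZero against NoSelect, 0 of 83 members were called, as were 0.0% of all rows in each. At an unadjusted p under 0.05, Uqcrc2 stood alone in PolyA against RiboZero (all rows, 1.82%), with a log2 difference of -0.13 (SE 0.0557). It stood alone too in RiboZero against NoSelect (all rows, 1.39%), at 0.16 (SE 0.0547). In PolyA against NoSelect 0 members did (all rows, 2.24%). With the mouse as a block, which the same mice allow, 0 of 83 members were called in each pair too, and 1 row of all those tested. The blocked Uqcrc2 difference was -0.13 (SE 0.0451, edgeR adjusted p = 0.888) for PolyA against RiboZero and 0.12 (SE 0.0569, edgeR adjusted p = 1.00) for RiboZero against NoSelect. The KO effect of Uqcrc2, called in RiboZero, is therefore not shown to differ between preparations after adjustment. Nor is it shown to be the same. The fit without a block left Bmal1 itself uncalled too, at log2 KO differences of -0.83 in RiboZero and -0.27 in PolyA.

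The calls depended on single libraries. The RiboZero count of 3 became 0 without KO1, KO2, KO4, WT1, WT2, WT3, WT4 or WT6 and 1 without KO6 or WT5. The PolyA count of 2 became 0 without KO4 and 1 without KO2, KO3, KO5, WT3, WT4 or WT5. It became 0 in both preparations with the replicate number as a block.

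Small differences above 0 were frequent among the members. The fitted log2 KO difference was above 0 for 65 of 83 members in both RiboZero and PolyA and for 55 in NoSelect. Among all rows tested, 8355 of 16710, 8475 of 17211 and 8588 of 17124 were above 0 in the same order. The median over the members was 0.039, 0.048 and 0.022 in RiboZero, PolyA and NoSelect, and the median over all rows was at most 0.003 from 0. The members move together from library to library: the SD between libraries of the members' median log2 level was 0.049 in RiboZero WT, 0.0999 in RiboZero KO, 0.058 and 0.057 in PolyA WT and KO, and 0.022 and 0.066 in NoSelect WT and KO. The medians of the KO difference were thus no larger than the larger of the 2 group SDs in each preparation. Such an SD is the spread of single libraries and not the error of a difference between groups. Whether the median KO difference exceeds that error was not tested. Restricting RiboZero to mice 3 to 6 gave 41 of 83 above 0, and leaving KO6 out of NoSelect gave 42.

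Summed over all 90 members, RiboZero libraries held 2596 ± 63.3 CPM (WT) and 2682 ± 153 CPM (KO; SD over 6 libraries each). PolyA libraries held 4074 ± 180 and 4225 ± 68.1. NoSelect libraries held 2232 ± 26.9 and 2279 ± 116 (n = 4 each). The ranges of the groups overlapped in each preparation. By complex the median log2 KO difference in RiboZero, PolyA and NoSelect was 0.041, 0.042 and 0.023 in complex I, and 0.051, 0.066 and 0.055 in II. It was 0.028, 0.048 and 0.014 in III, 0.058, 0.061 and 0.032 in IV, and 0.028, 0.032 and 0.023 in V. The median coefficient of variation of a member within a group was 4.08% to 7.61%.

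**Figure D3:**
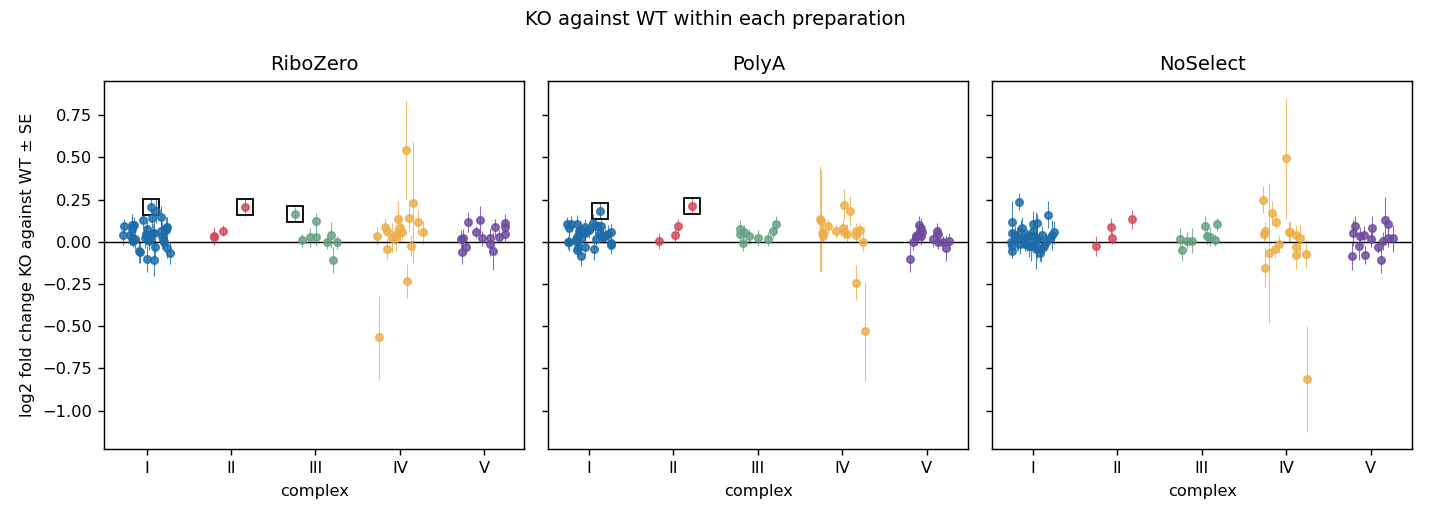
Log2 KO difference ± SE of every tested member by complex in the 3 preparations, with called members as black squares. Most points lie close to 0, with 3 called in RiboZero, 2 in PolyA and 0 in NoSelect.

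Groups that did not overlap were counted too. This held for 0 of 83 members in RiboZero (all rows, 2.89%), 2 in PolyA (3.21%) and 5 in NoSelect (9.51%). The PolyA members were Sdhd and Ndufb11, a supernumerary membrane-arm subunit of complex I, at 50.2 to 53.2 CPM in WT and 53.4 to 56.4 in KO (log2 0.095, edgeR adjusted p = 0.109). The NoSelect members were Ndufv3, Uqcrh, Atp5mpl, Ndufa4l2 and Cox6a2. Uqcrh stood at 33.0, 33.0, 34.5 and 33.3 CPM in WT3 to WT6 and at 35.2, 35.2, 35.5 and 37.9 in KO3 to KO6 (log2 0.10, edgeR adjusted p = 0.236). With 1 TMM scale common to all libraries, Sdhd also separated in RiboZero and Ndufv3 in PolyA.

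The tissue-restricted isoforms of complex IV held the extremes of the fitted KO differences, and none of them was called. Cox6a2 and Cox6b2 were the lowest of the 83 members in each preparation, and the highest was Cox8b in RiboZero and NoSelect and Cox4i2 in PolyA. Cox6a2, on chr7:128205435-128206387, is the heart and skeletal muscle form of subunit 6a. In RiboZero its WT levels were 3.84, 4.29 and 5.11 CPM and its KO levels 1.07, 3.22 and 4.14, with KO3 lowest. In PolyA they were 6.49, 8.34 and 12.5 in WT and 2.08, 6.67 and 9.81 in KO, with KO3 again lowest. In NoSelect WT3 to WT6 stood at 4.75, 4.53, 6.97 and 4.80 CPM and KO3 to KO6 at 1.27, 3.46, 2.97 and 4.20. The groups overlapped in RiboZero and PolyA and did not in NoSelect.

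The log2 KO difference of Cox6a2 was -0.57, -0.53 and -0.81 in RiboZero, PolyA and NoSelect (SE 0.246, 0.293 and 0.316). The edgeR adjusted p-values were 0.270, 0.369 and 0.260. Cox6a2 held 15 counts in RiboZero KO3, the library with the lowest total. With 1 mouse left out its log2 KO difference ran from -0.68 to -0.41, -0.71 to -0.34 and -1.03 to -0.57 in the same order. Its share of Cox6a1 plus Cox6a2 per length was 7.85% in WT and 5.37% in KO in RiboZero (SD 1.26 and 1.82, n = 6 each, exact permutation p = 0.0152, two-sided). In PolyA the share was 9.06% against 6.29% (exact permutation p = 0.0649). In NoSelect it was 9.94% against 5.93%, with an exact permutation p of 0.0286, the smallest that 4 against 4 allows. Over the 18 isoform share tests the smallest adjusted p was 0.129, so no share passed after adjustment. In whole lung, fewer cells of a type and less RNA per cell cannot be told apart.

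Heart-muscle RNA varied between the same libraries. The 10 cardiomyocyte markers together reached 127.9 to 471.7 CPM in RiboZero WT and 69.5 to 336.8 in KO. They summed to 174.5 to 742.6 and 90.1 to 500.0 in PolyA, and to 127.3 to 246.1 and 68.9 to 252.6 in NoSelect. No marker was at or under 3 counts throughout a group. Of the tested markers, Myh7 fell in RiboZero KO (1 of 9), and 0 of 10 in PolyA and 0 of 9 in NoSelect were called. Skeletal muscle markers summed to at most 13.1 CPM in any library.

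Cox6a2 followed the marker sum across libraries most closely in PolyA. There Pearson's r was 0.88 and Spearman's rho 0.76 over 12 libraries (permutation test, adjusted p = 0.00096 over 9 relations), and r was 0.64 without the 2 libraries farthest from the median sum. In RiboZero r was 0.70 and rho 0.55 (permutation test, adjusted p = 0.0344), but r was 0.049 without the 2 farthest, so the relation rests on them. In NoSelect r was 0.73 and rho 0.36 over 8 libraries (exact permutation test, adjusted p = 0.119), and r was 0.22 without the 2 farthest. The part of heart tissue in the Cox6a2 difference was not tested.

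**Figure D4:**
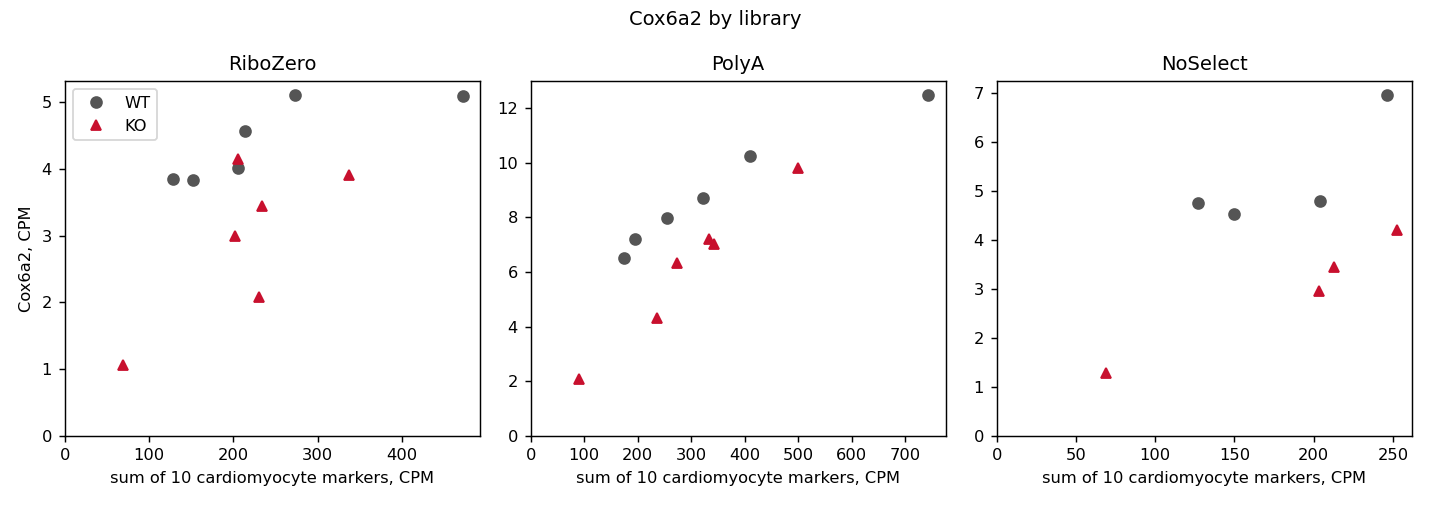
CPM of Cox6a2 against the summed CPM of 10 cardiomyocyte markers, 1 point per library, by preparation and genotype. In PolyA the points rise together (r 0.88), and the KO3 libraries are lowest on both axes.

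Cox7a1 and Cox8b, the muscle forms of subunits 7a and 8, also followed the heart markers. For Cox7a1 r was 0.71, 0.94 and 0.81 in RiboZero, PolyA and NoSelect (exact or resampled permutation tests, adjusted p = 0.0250, 0.00054 and 0.0225). Without the 2 farthest libraries r was 0.82, 0.88 and 0.47. For Cox8b r was 0.75, 0.90 and 0.79 (permutation tests, adjusted p = 0.0144, 0.00054 and 0.0225) and 0.77, 0.77 and 0.62 without them. Their log2 KO differences were 0.23, 0.13 and -0.06 for Cox7a1 and 0.54, 0.12 and 0.50 for Cox8b, in the same order of preparations. Cox6a2 was thus lower in KO by its fitted value while Cox8b was higher, and none of these differences was called.

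Cox6b2, the testis form of subunit 6b, ran from 8.46 to 10.3 CPM in PolyA WT and from 5.76 to 9.47 in KO. Its log2 KO difference was -0.23, -0.24 and -0.15. Cox4i2, a form of subunit 4 known from lung and from pericytes, ran from 13.9 to 17.18 CPM in NoSelect WT and from 17.17 to 19.7 in KO. Its log2 KO difference was 0.12, 0.22 and 0.25, and the last of these had an edgeR adjusted p of 0.166. Ndufa4l2, a hypoxia-inducible relative of the complex IV subunit Ndufa4, was at 0.14, 0.18 and 0.17. In NoSelect Ndufa4l2 stood at 10.5 to 12.4 CPM in WT and 12.6 to 14.2 in KO. Beside these, Abcc9 and Kcnj8, 2 of 8 pericyte and smooth muscle markers, were called lower in KO in all preparations. Of the 8, 0 were called higher, and their median log2 KO difference was 0.092, 0.0016 and 0.18 in RiboZero, PolyA and NoSelect. The 8 markers summed to 588 to 638 CPM in NoSelect WT and 633 to 747 in KO. They summed to 574 to 818 in RiboZero WT and 623 to 760 in KO, and to 495 to 860 in PolyA WT and 543 to 639 in KO. The part of these cells in the isoform values was not tested.

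Per length the isoforms were minor forms in this tissue. In PolyA Cox4i2 stood at 52.1 CPM per kb, Ndufa4l2 at 20.2, Cox6b2 at 16.2, Cox6a2 at 10.6, Cox8b at 4.87 and Cox7a1 at 4.75. Cox4i2 made up 18.1% of subunit 4 transcripts in RiboZero WT, 20.3% in PolyA WT and 20.7% in NoSelect WT, the rest being Cox4i1. The corresponding KO shares were 19.0%, 21.7% and 23.0%, and the smallest exact permutation p among these 3 was 0.0571.

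The preparation comparisons asked how selection changes the measured level of the same genes. In PolyA against NoSelect all 83 tested members rose, where 42.8% of all rows were called higher and 36.3% lower. The log2 difference was at least 1 for 46 (all rows, 10.0%), and its median was 1.06 against 0.10 over all rows. It was above 0 in each of 8 matched mice for all 83. In PolyA against RiboZero 82 rose (all rows, 42.5%) and 0 fell (38.6%), 17 by at least 1 (7.0%), with a median of 0.82 against 0.07. In RiboZero against NoSelect 63 rose (24.3%) and 8 fell (21.5%), 0 of them by at least 1 in the upward direction (1.74%), with a median of 0.24 against 0.03. After all libraries were thinned to the smallest total, 21 members were called in RiboZero against NoSelect, 20 of them higher, and the median was again 0.24. That total was 11638590 counts, against at least 74979759 in a NoSelect library, so far fewer NoSelect counts entered this fit. The share of all rows called after thinning is not given here, so the 21 cannot be set against a background. NoSelect also differs from the others in input and in the number of preparations combined, so these cannot be told apart from selection. PolyA against NoSelect and RiboZero against NoSelect share the NoSelect libraries.

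Cox7c, on chr13:86044816-86046904, a small membrane subunit of complex IV, rose most. Its level was 25.1, 26.6 and 30.1 CPM (lowest, median, highest) in PolyA, 8.16, 10.4 and 13.1 in RiboZero and 5.74, 6.32 and 6.87 in NoSelect. The 3 preparations did not overlap. The log2 difference of Cox7c between PolyA and NoSelect was 2.13 (SE 0.0409), or 4.38-fold. Next came Atp5mpl, a small membrane protein of the ATP synthase (1.66), Cox7a1 (1.58), Ndufa4 (1.49) and Uqcr10, a small subunit of complex III (1.46).

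Ndufs1, on chr1:63143596-63176833, the largest subunit of complex I, rose least in PolyA against NoSelect. Its level was 34.7, 38.2 and 42.9 CPM in PolyA, 36.3, 38.9 and 43.1 in RiboZero and 29.7, 32.6 and 34.9 in NoSelect. The PolyA and RiboZero libraries overlapped almost fully. The log2 difference of Ndufs1 was 0.29 for PolyA against NoSelect and -0.02 for PolyA against RiboZero (edgeR adjusted p = 0.615). Sdha (0.31), Ndufb2 (0.32), Uqcrc2 (0.49) and Atp5b (0.50) were the next lowest in PolyA against NoSelect.

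Against RiboZero the highest PolyA members were Atp5g3 (log2 1.38), Cox7c (1.35), Cox6b2 (1.34), Atp5mpl (1.28) and Uqcrq (1.27). The lowest called were Sdha (0.09), Ndufb2 (0.15), Uqcrc2 (0.23), Atp5b (0.23) and Atp5a1 (0.32). Sdha and Ndufb2 were not called there with DESeq2 or median-of-ratios size factors. In RiboZero against NoSelect the highest were Cox7c (0.74), Ndufa5 (0.57), Ndufb4 (0.49, uncertain), Uqcrb (0.43) and Atp5k (0.43). Of the 8 that fell, Cox6b2 (-0.27), Atp5d (-0.25), Ndufa4l2 (-0.22), Atp5g3 (-0.16) and Uqcrq (-0.13) were lowest, and Uqcrq was called in 8 of 20 alternatives. After thinning, Ndufa5, Ndufb4, Cox6b2, Atp5d and Uqcrq were not called, and Atp5g3 was at 0.0035.

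The size of the PolyA difference went with transcript length. The 86 protein-coding members are short, with a median of 759 bases and 65.1% under 1000, against 2482 bases and 12.6% for 21451 protein-coding rows. Over the 83 tested members Pearson's r of the log2 difference with log length was -0.71 for PolyA against NoSelect, -0.62 for PolyA against RiboZero and -0.14 for RiboZero against NoSelect. Over all protein-coding rows tested r was -0.46, -0.41 and -0.13. Genes are not independent replicates, so these are descriptions. For the KO difference r over the members was -0.08, -0.01 and 0.03 in RiboZero, PolyA and NoSelect.

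Within classes of length, the members' median for PolyA against NoSelect was 1.19 under 600 bases (24 members) against 1.05 for protein-coding rows. It was 1.11 against 0.97 at 600 to 1000 bases (29 members), and 0.86 against 0.64 at 1000 to 2000 (23). At 2000 bases or more it was 0.58 (7 members) against -0.12. The members' median was thus above that of the protein-coding rows, which include them, in each class. By complex the median was 1.18 in IV, 1.07 in III, 1.05 in I, 0.93 in V and 0.83 in II.

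**Figure D5:**
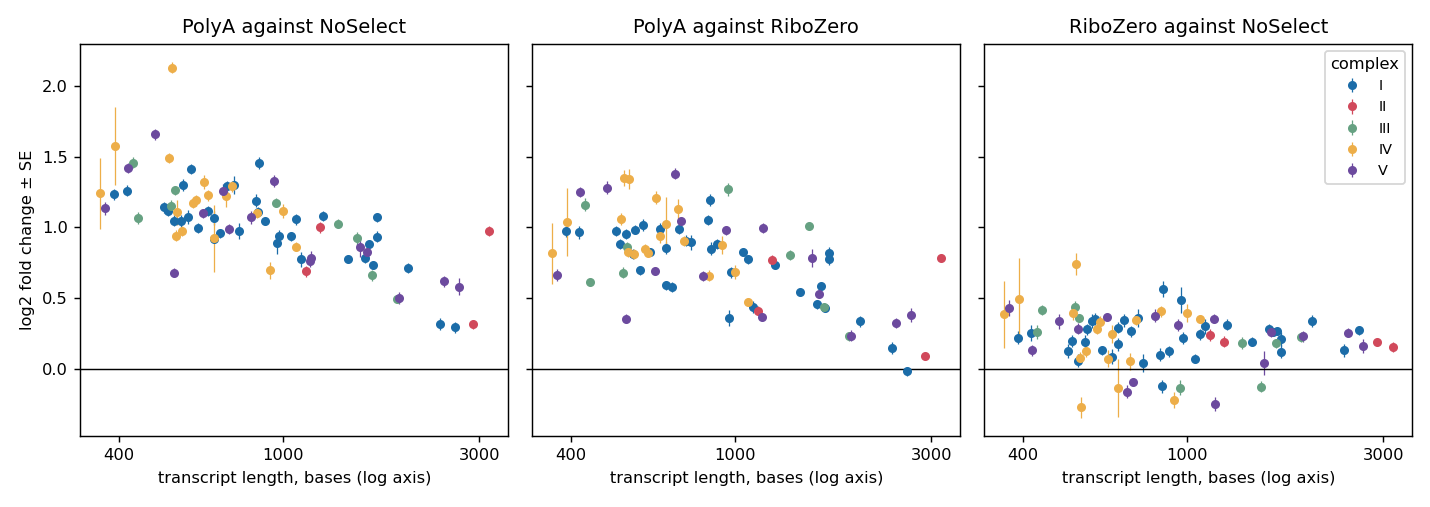
Log2 difference ± SE of each member between preparations against principal transcript length (log axis), in 3 panels. In PolyA against NoSelect the points descend from Cox7c at 2.13 to Ndufs1 at 0.29 (r -0.71), and in RiboZero against NoSelect they stay flat (r -0.14).

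Other genes of the pathway were given by list. Of the assembly factors tested, 17 for complex I, 4 for II, 6 for III, 23 for IV and 3 for V, none was called for KO against WT in any preparation. Likewise 0 of 12 transcription regulators of the pathway, 0 of 13 mitochondrially encoded subunits, and neither Ndufab1 nor Cycs (cytochrome c) were called. In PolyA against NoSelect, 17 of 17 complex I assembly factors rose with a median of 0.53, where 42.8% of all rows rose, 36.3% fell and the median was 0.10. Of 23 complex IV assembly factors 15 rose and 3 fell, and of the 12 transcription regulators 3 rose and 6 fell, with a median of -0.31.

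The mitochondrially encoded subunits, the partners of the nuclear members in complexes I, III, IV and V, followed another pattern over the preparations. In PolyA against RiboZero 12 of 13 rose (all rows, 42.5%). In PolyA against NoSelect 9 rose (all rows, 42.8%) and 2 fell (36.3%), with a median log2 difference of 0.64. In RiboZero against NoSelect 2 rose (24.3%) and 9 fell (21.5%), with a median of -1.03, where the nuclear members had a median of 0.24. Their summed level was 9260 ± 578 CPM in RiboZero WT, 20732 ± 1795 in PolyA WT and 12928 ± 1018 in NoSelect WT (SD, n = 6, 6 and 4). The KO sums were 9497 ± 557, 21012 ± 2399 and 13486 ± 797, within the spread of WT.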

How the data were processed

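The deposited table holds 1 column of estimated counts per library, for RNA from 32 libraries of 12 mice. The submitters' processing notes list Salmon 1.4.0, UMI-tools 1.1.1 and GRCm38, and the annotation and the use of UMIs are not given in the sources used here. Of the estimated counts the authors deposited, 12.81% were not whole, and all were rounded. Members and lists were chosen with earlier results of these data known.

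Tests used edgeR 4.0.16 in R 4.3.3 (quasi-likelihood, TMM, filterByExpr, Benjamini-Hochberg adjustment over all rows). KO against WT was fitted within a preparation, and preparations were compared with genotype as a covariate and no block for the mouse. Alternatives included DESeq2 1.42.0. Named members were those called in KO, the 3 of lowest p where none was called, the 5 highest and 5 lowest per preparation pair, the isoform pairs, the extremes of level per complex and those sharing most sequence. Symbols and lengths (APPRIS principal transcript) came from GENCODE M21. Isoform shares, heart-marker correlations, this length and the shown CPM scale were chosen after seeing the data. Libraries of the same mouse deviated together across preparations (r 0.41 to 0.78, all over 0.1), the mouse being in the labels. Scripts were tested on simulated data, and p-values of correlations used 100000 resamples or all orders. Values of 1 member are not reported here.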

Additional observations from a re-analysis of the deposited data

Results flagged for a closer look

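Within groups of 4 to 6 libraries, the highest or lowest was flagged if its gap to the next was large against the group's range. Such flags fell on 9 of 96 groups of values, where chance gives about 1 in 20 for independent groups. These groups are not independent, since the sums hold the complexes and the complexes hold the named genes. The same library can therefore be flagged several times, as PolyA WT2 was. PolyA WT2 was the highest of the 6 PolyA WT libraries for the summed level of all members, 4422 CPM with the next at 4077. It was highest too for complex I (1289, next 1205), complex III (473.7, next 435.9), complex V (1456, next 1324) and Uqcrc2, whose level was 57.7 CPM with the next at 53.4. PolyA KO1 was lowest in its group for complex III, at 436.3 CPM with the next at 450.7. PolyA KO3 was lowest for complex V, at 1272 CPM with the next at 1353. NoSelect KO6, the library labelled liver, was highest in its group for Uqcrh at 37.9 CPM, with the next at 35.5. NoSelect WT5 was highest for Cox6a2 at 6.97 CPM, with the next at 4.80. On 1 TMM scale common to all libraries the flags were 3: Uqcrh in NoSelect KO6 (38.2 CPM), Cox6a2 in NoSelect WT5 (6.96 CPM) and Uqcrh in PolyA KO1 (75.0 CPM). The PolyA flags of summed levels were therefore found on the preparation's own scale and not on the common one.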

How the results depend on the processing

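The 3 members called for KO in RiboZero became 0 with no filter on low counts, 0 with the replicate block, 0 in mice 3 to 6 alone and 1 after thinning to the smallest total, and ran from 0 to 3 when 1 mouse was left out. The 2 called in PolyA became 1 without the filter, 0 after thinning, 0 with the replicate block, 5 in 1 fit of all 32 libraries and 1 in mice 3 to 6, and ran from 0 to 3 with 1 mouse left out. The 0 in NoSelect became 1 with DESeq2 and 1 in the fit of all libraries, and stayed 0 with each mouse left out. The fit of all libraries has no term for the mouse, so libraries of the same mouse enter it as separate. Shares of all rows called under these settings are not given here, so the counts cannot be set against a background. The numbers shared by WT and KO mice name different animals and did not pair them (r of same-numbered libraries -0.18 to 0.27, with 1, 2 and 2 libraries nearest to their own number), so the block is given as a setting. Among the 71 called for RiboZero against NoSelect, 21 were called after thinning, and 67 to 71 with 1 mouse left out. Differences of at least 1 in PolyA against RiboZero numbered 27 without the filter against 17. The median for PolyA against NoSelect was 0.99 with DESeq2, 0.99 with median-of-ratios size factors, 1.00 with at least 10 counts in every library and 0.99 to 1.07 with 1 mouse left out. After thinning, Sdhd in NoSelect was at -0.28 and Atp5g3 in RiboZero against NoSelect at 0.0035; fewer counts entered these fits. KO minus WT shares of Cox7a1 in PolyA turned to -0.0051 in mice 3 to 6. With 1 mouse left out the KO difference changed sign for Uqcrc2 in NoSelect (-0.0067 to 0.031) and, in percentage points of share, for Cox7a1 (RiboZero -0.30 to 1.13, PolyA -0.39 to 1.31, NoSelect -1.36 to 0.080), Cox8b in PolyA (-0.11 to 0.79) and Ndufa4l2 in RiboZero (-0.080 to 1.67). The cause of the other changes was not tested. Of 359 alternatives of single genes, those with a mouse left out not among them, 322 kept their direction and side of the threshold. Of the rest, 33 lost a call, 2 gained one and 2 changed sign, these being the Sdhd and Atp5g3 values after thinning. With median lengths over coding transcripts the order of the complexes was the same and r with length was -0.64, -0.56 and -0.13. The highest members of complexes I and III changed with that length in RiboZero and NoSelect. NoSelect without KO6 kept 0 calls, with a median KO difference of 0.00063. Shares and their tests, that length and the common scale were added after the data were seen. Low counts limit Cox6a2, Cox7a1 and Cox8b most.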
